A study of Homo sapiens with 4 samples.

Results

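The genes described here are 46 components of the DNA replication fork, taken from a named list of GINS subunits, DNA polymerases, the sliding clamp and its loader, replication protein A, fork protection factors and chromatin assembly factors. The list holds 5 subunits of the origin recognition complex, ORC2 to ORC6, but leaves out ORC1 and the other origin licensing genes, among them the MCM helicase subunits. All 46 were found among the 58560 genes to which transcript counts were summed, and all 46 had enough counts to be tested. RNA sequencing had been run on A549, a human lung adenocarcinoma cell line, in 4 libraries. Both control libraries came from cells in complete medium, with no treatment named in their labels. The other two libraries came from cells washed with phosphate-buffered saline and kept in DMEM without glutamine, with fetal bovine serum. Deprivation lasted 24 hours in the protocol, and the label of deprived replicate 1 says the same, but that of deprived replicate 2 says 25 hours. No wash or change of medium is named for the controls, so glutamine loss, the wash and the fresh medium cannot be told apart. The labels do not say whether replicates were separate cultures, so p-values measure only the spread between these libraries, which may be technical.

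A replication fork is opened by the CMG helicase, which consists of the MCM ring, CDC45 and the 4-subunit GINS complex. DNA polymerase alpha with primase lays down primers, polymerase epsilon extends the leading strand, and polymerase delta extends the lagging strand while held to DNA by the ring-shaped clamp PCNA. Many of these genes are transcribed mainly as cells pass from G1 into S phase, under control of E2F transcription factors, and glutamine supplies nitrogen for the nucleotides that the polymerases use.

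Library totals ran from 101496318 to 123414592 estimated counts. Levels are given in CPM, the count of a gene relative to its library total after TMM scaling in edgeR. The labels name alveolar cells, and of the alveolar type II markers the surfactant gene SFTPA1 was at 0 in all 4 libraries, while SFTPB and SFTPC reached at most 0.300 and 0.184 CPM. The lipid transporter ABCA3 of the same list stood at 41.2 and 41.3 CPM in the controls and 27.7 and 28.6 CPM in the deprived libraries. LAMP3 and NKX2-1 were called higher in deprived cells, at up to 3.03 and 0.811 CPM there. All 5 epithelial markers were called lower in deprived cells, and their summed level fell from between 7570 and 7681 CPM in controls to between 1730 and 2019 CPM in deprived libraries. Control replicate 1 alone held 11.6 CPM of the red cell gene HBB, against 0.11 to 0.23 CPM in the other libraries, and it alone had counts of KRT5 (86) and KRT14 (28). Whether either of these differences had a part in the results on replication genes was not tested, and the count of members without control replicate 1 is given beside the main one.

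Most replication fork genes were lower in glutamine-deprived cells. Of the 46 genes, 35 were called lower and 3 higher (edgeR quasi-likelihood test, two-sided, Benjamini-Hochberg adjusted p under 0.05 over all 24527 tested genes), and 8 were not called. That is 76.1% called lower and 6.52% called higher, where 24.4% of all tested genes were called lower and 25.2% higher. Among the 46 genes, 25 (54.3%) were called lower by at least 2-fold, against 15.3% of all tested genes. All 46 are protein-coding. Of the 15411 tested protein-coding genes, 29.8% were called lower, 34.3% higher and 16.6% lower by at least 2-fold. The median log2 fold change of the 46 was -1.13, with a range from -3.49 for GINS4 to 0.91 for POLE3, and the median over all tested genes was -0.06. Their summed level lay between 3125 and 3225 CPM in the controls and between 1748 and 1897 CPM in the deprived libraries. In bulk RNA, fewer cells that express these genes and less of their RNA per cell cannot be told apart. In 42 of the 46 genes (91.3%) the deprived libraries did not overlap the controls. The same was the case in 76.5% of all tested genes and in 84.4% of tested protein-coding genes. DBF4, POLE4, RFC5 and RPA2 were the 4 that overlapped.

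Without control replicate 1, 35 genes were called lower and 2 higher. These were not all the same genes, since POLD2 and TIPIN lost their calls there and members not called in the main analysis gained one. Of the 35 genes called lower in the main analysis, 32 stayed called in each of the 14 alternative analyses, and ORC6, POLD2 and TIPIN did not. Of the 3 called higher, POLE3 and POLD4 stayed called in each of them and ORC5 did not. With library totals as the only scaling, the median of all tested genes moved from -0.06 to -0.40. The calls over all genes then split into 4179 higher and 8565 lower, against 6174 and 5982 with TMM, and the members into 2 higher and 40 lower. Of the members, POLE3 and POLD4 were still higher under this scaling.

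**Figure D1:**
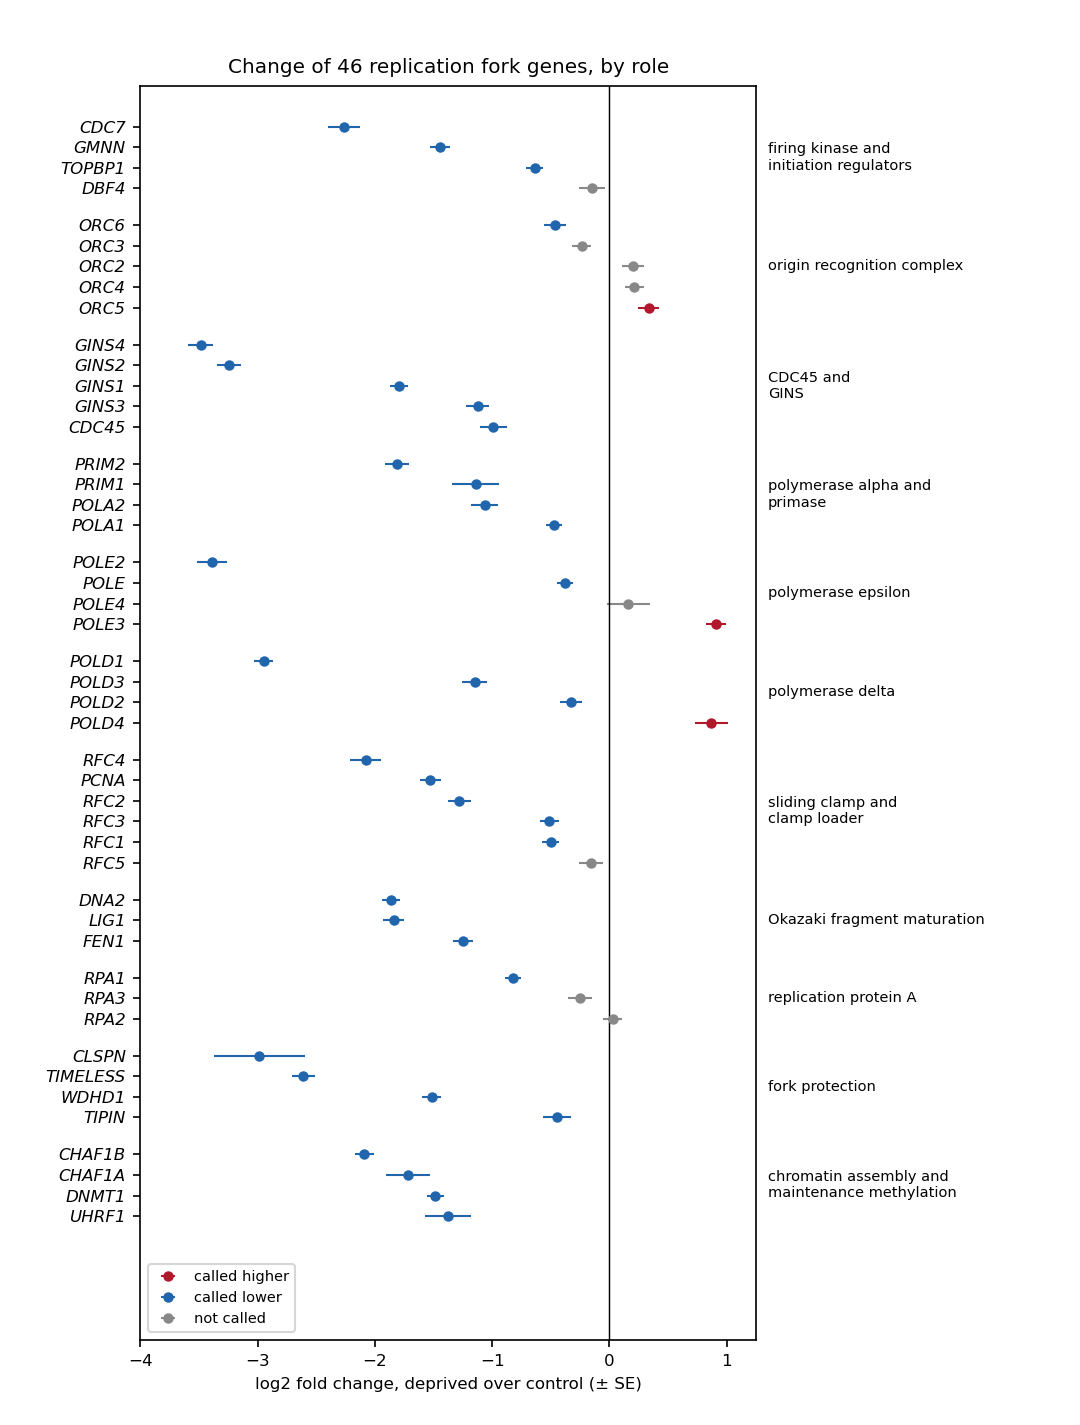
Log2 fold change of each of the 46 genes (horizontal axis, deprived over control, with bars of 1 SE from edgeR), arranged by role; blue marks genes called lower, red those called higher and grey those not called. The CDC45 and GINS, polymerase alpha, Okazaki fragment, fork protection and chromatin assembly genes all lie left of 0, whereas origin recognition subunits lie on both sides.

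To show the DNA in front of these genes, promoter windows of RefSeq (GRCh38.p14, 250 bases before to 50 after a start) were searched on both strands for 4 E2F strings, TTTCCCGC, TTTCGCGC, TTTGCCGC and TTTGGCGC. The 120 bases before the start are printed for GINS2, POLE2 and GINS1, the 3 genes called lower with the smallest p among those with a match, and for POLE4, a subunit of the same polymerase as POLE2 that was not called lower. POLE4 was chosen after its values were seen. Capitals mark the E2F match, and where the match runs past the start the printed stretch runs to its end. The regions are chr16:85688955-85689074 (minus strand) for GINS2, chr14:49688212-49688334 (minus strand) for POLE2, chr20:25407553-25407685 (plus strand) for GINS1 and chr2:74958523-74958642 (plus strand) for POLE4.
GINS2: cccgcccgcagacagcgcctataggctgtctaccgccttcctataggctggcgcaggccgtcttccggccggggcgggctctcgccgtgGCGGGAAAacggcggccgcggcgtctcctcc
POLE2: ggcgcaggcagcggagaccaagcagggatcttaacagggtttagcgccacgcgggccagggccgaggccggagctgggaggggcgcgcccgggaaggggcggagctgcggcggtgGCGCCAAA
GINS1: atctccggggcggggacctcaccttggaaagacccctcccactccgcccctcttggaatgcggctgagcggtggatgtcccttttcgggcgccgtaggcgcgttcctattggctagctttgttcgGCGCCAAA
POLE4: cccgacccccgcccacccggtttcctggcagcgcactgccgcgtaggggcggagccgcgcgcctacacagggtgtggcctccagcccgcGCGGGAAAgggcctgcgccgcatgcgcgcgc
Both GINS2 and POLE4 hold the letters GCGGGAAA beginning at position -31 from the start, while POLE2 holds GCGCCAAA across the start, beginning at -5, and GINS1 holds it after the start, beginning at 6. GINS2 and POLE4 thus share the same match at the same position, and their log2 fold changes were -3.25 and 0.16.

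Windows were present for 41 of the 46 genes, 55 windows in all, some of which overlap each other. DNA2, GINS4, POLD3, RPA2 and RPA3 had none. An E2F string was found in 20 of the 55 windows (36.4%), against 1164 of all 35116 windows (3.31%) and 5.34% of windows of tested protein-coding genes called lower. By gene, 19 of 41 members (46.3%) held a match, among them CDC7, CLSPN, DNMT1, PCNA, LIG1, GINS3 and UHRF1. Of all genes with a window, 3.99% held a match. Among tested protein-coding genes the share was 7.32% of those called lower, 5.98% of those called higher and 5.37% of those not called. A match was present in 17 of the 32 members called lower and in 2 of the 9 that were not, ORC3 and POLE4. The median log2 fold change was -1.37 over the 19 genes with a match (from -3.39 to 0.16) and -0.90 over the 22 without (from -2.95 to 0.91), so the ranges overlapped along most of their length. In TIPIN the string occurs on both strands in letters that overlap, at -66 and -62. The box CCAAT was found in 26 of the 55 windows (47.3%), against 34.6% of all windows. The string TTTGAA, the core of the cell cycle element CHR, was found in 2 (3.64%), against 15.2%. No string of one kind contains one of another kind. A match describes letters and does not show that a factor binds there.

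**Figure D2:**
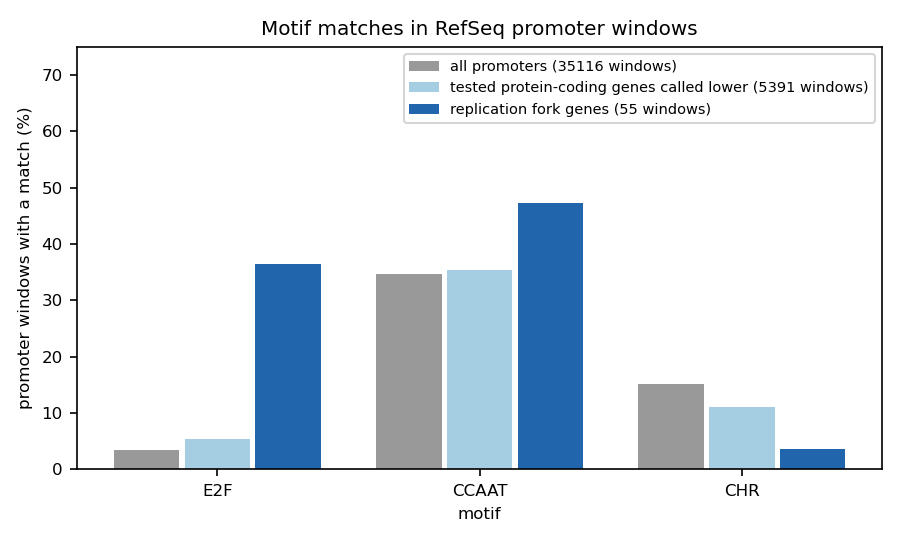
Share of RefSeq promoter windows with at least 1 match (vertical axis, percent) for the E2F, CCAAT and CHR strings, in all windows, in windows of tested protein-coding genes called lower and in windows of the replication fork genes. The E2F bar of the replication fork genes stands at 36.4%, against 3.31% for all windows.

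Among the genes that trigger or restrain origin firing, 3 of 4 fell and 1 was not called, with a median of -1.04. CDC7, the kinase that phosphorylates the MCM helicase to start replication (chr1:91500893-91525764, plus strand), stood at 14.7 and 16.3 CPM in the controls and 3.28 and 3.15 CPM in the deprived libraries (log2 fold change -2.27 ± 0.14, edgeR adjusted p = 5.98e-05). DBF4, the regulatory subunit that activates CDC7, stood at 29.3 and 34.0 CPM in the controls and 30.6 and 26.6 CPM in the deprived libraries (log2 fold change -0.15 ± 0.11, edgeR adjusted p = 0.324). The libraries of the kinase subunit did not overlap between groups, as was the case in 76.5% of all tested genes. Those of its activator overlapped. Per length, in TPM (a count share corrected for transcript length), the level of DBF4 was 2.24 and 2.18 times that of CDC7 in the controls and 11.1 times in each deprived library. Such ratios between subunits are given as descriptions. They largely restate the fold changes of the 2 genes compared and add no separate evidence. They were not tested, since 2 libraries against 2 cannot give an exact permutation p under 0.333. GMNN encodes geminin, which blocks relicensing by binding CDT1, and stood at 36.7 and 40.0 CPM in the controls and 13.9 and 14.3 CPM in the deprived libraries (log2 fold change -1.44 ± 0.08, edgeR adjusted p = 5.71e-05). TOPBP1, a scaffold for loading the helicase and for checkpoint signalling, stood at 150.3 and 157 CPM in the controls and 102 and 95.0 CPM in the deprived libraries (log2 fold change -0.64 ± 0.07, edgeR adjusted p = 0.000773).

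The origin recognition complex marks the sites where replication begins. Of its 5 subunits in the list, 1 fell, 1 rose and 3 were not called, with a median of 0.20. These shares, 20% lower and 20% higher, lay near the 24.4% and 25.2% of all tested genes. ORC6 stood at 31.4 and 32.5 CPM in the controls and 24.9 and 21.5 CPM in the deprived libraries (log2 fold change -0.46 ± 0.10, edgeR adjusted p = 0.00863), and that call was lost when only transcripts annotated as protein-coding were summed (log2 fold change -0.11, edgeR adjusted p = 0.533). ORC5 stood at 36.1 and 41.7 CPM in the controls and 49.3 and 48.6 CPM in the deprived libraries (log2 fold change 0.33 ± 0.09, edgeR adjusted p = 0.0241), and its groups did not overlap. Without control replicate 1 the ORC5 difference was 0.22 with an edgeR adjusted p of 0.161, and with library totals as the only scaling it was -0.00066. ORC2, ORC3 and ORC4 encode further subunits of the ring. ORC2 stood at 40.0 and 40.0 CPM in the controls and 42.2 and 49.6 CPM in the deprived libraries (log2 fold change 0.20 ± 0.09, edgeR adjusted p = 0.135). ORC3 stood at 56.2 and 63.6 CPM in the controls and 51.8 and 49.8 CPM in the deprived libraries (log2 fold change -0.24 ± 0.08, edgeR adjusted p = 0.0599). ORC4 stood at 54.6 and 60.8 CPM in the controls and 68.6 and 65.2 CPM in the deprived libraries (log2 fold change 0.21 ± 0.08, edgeR adjusted p = 0.0745). None of these 3 subunits passed the threshold. The libraries of the groups did not overlap in any of them, as was the case in 76.5% of all tested genes.

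CDC45 and all 4 GINS subunits, the parts of the helicase that join the MCM ring when an origin fires, fell, with a median of -1.79. GINS4 showed the largest fall of the 46 genes, at 39.0 and 37.9 CPM in the controls and 3.25 and 3.61 CPM in the deprived libraries (log2 fold change -3.49 ± 0.10, edgeR adjusted p = 1.31e-05). GINS2, a second GINS subunit (chr16:85676198-85690073, minus strand), stood at 37.1 and 41.0 CPM in the controls and 4.21 and 4.03 CPM in the deprived libraries (log2 fold change -3.25 ± 0.10, edgeR adjusted p = 1.37e-05). These are 11.2-fold and 9.48-fold lower levels in deprived cells, and replicates differed far less than the groups. GINS1 stood at 138 and 124 CPM in the controls and 38.2 and 37.4 CPM in the deprived libraries (log2 fold change -1.79 ± 0.08, edgeR adjusted p = 2.56e-05). GINS3 stood at 41.9 and 48.2 CPM in the controls and 21.4 and 19.9 CPM in the deprived libraries (log2 fold change -1.12 ± 0.10, edgeR adjusted p = 0.000232). CDC45 stood at 14.0 and 13.7 CPM in the controls and 6.88 and 7.02 CPM in the deprived libraries (log2 fold change -0.99 ± 0.12, edgeR adjusted p = 0.000813). The 4 GINS proteins occur in equal number in the complex, but the log2 fold changes of their RNAs ran from -3.49 to -1.12. Per length, the TPM level of GINS3 was 1.74 and 2.15 times that of GINS4 in the controls and 9.71 and 8.23 times in the deprived libraries. For GINS1 over GINS2 the TPM ratios were 3.07 and 2.505 in the controls and 7.15 and 7.875 in the deprived libraries. GINS4 shares 21.2% of its exon bases with an antisense gene that held at most 0.201 raw CPM in any library. It also shares 131 exon bases with the antisense gene GPAT4-AS1. That gene held 5.36 and 10.0 raw CPM in the controls and 10.4 and 17.3 raw CPM in the deprived libraries. GINS4 itself held 44.8 and 41.7 raw CPM in the controls and 2.80 and 3.32 raw CPM in the deprived libraries. Whether reads of GPAT4-AS1 had a part in the GINS4 counts was not tested.

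All 4 subunits of polymerase alpha and primase, which make the RNA-DNA primers, fell, with a median of -1.10. PRIM2, the large primase subunit, stood at 36.0 and 39.3 CPM in the controls and 11.4 and 10.0 CPM in the deprived libraries (log2 fold change -1.81 ± 0.10, edgeR adjusted p = 5.14e-05). PRIM1, the catalytic primase subunit, stood at 17.2 and 18.5 CPM in the controls and 9.73 and 6.47 CPM in the deprived libraries (log2 fold change -1.14 ± 0.20, edgeR adjusted p = 0.00467). The deprived replicates of PRIM1 differed more than those of PRIM2, yet both lay below both controls. POLA2, the accessory subunit, stood at 92.1 and 87.4 CPM in the controls and 47.5 and 38.4 CPM in the deprived libraries (log2 fold change -1.06 ± 0.11, edgeR adjusted p = 0.000533). POLA1, the catalytic polymerase subunit, fell least, with levels of 53.0 and 50.3 CPM in the controls and 36.9 and 37.7 CPM in the deprived libraries (log2 fold change -0.47 ± 0.07, edgeR adjusted p = 0.00231). POLA2 shares 35.1% of its exon bases with a same-strand protein-coding gene model that held between 2.22 and 11.6 raw CPM, so counts could have been divided between them.

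Polymerase epsilon, the leading-strand enzyme, showed changes in both directions among its 4 subunits, with 2 lower, 1 higher and 1 not called. POLE2, which bridges the polymerase to the helicase (chr14:49643555-49688422, minus strand), stood at 23.3 and 25.9 CPM in the controls and 2.26 and 2.42 CPM in the deprived libraries (log2 fold change -3.39 ± 0.13, edgeR adjusted p = 1.73e-05). POLE, the catalytic subunit, stood at 107 and 106 CPM in the controls and 83.7 and 79.7 CPM in the deprived libraries (log2 fold change -0.38 ± 0.07, edgeR adjusted p = 0.00466). The histone-fold subunit POLE3 (chr9:113407235-113410672, minus strand) moved the other way, at 109 and 100.4 CPM in the controls and 206 and 186 CPM in the deprived libraries (log2 fold change 0.91 ± 0.09, edgeR adjusted p = 0.000328). It is also part of a chromatin remodelling complex, as background, and its deprived libraries lay above both controls. POLE4, the partner of POLE3 in the histone-fold pair, stood at 13.8 and 18.8 CPM in the controls and 20.2 and 16.2 CPM in the deprived libraries (log2 fold change 0.16 ± 0.18, edgeR adjusted p = 0.508), with overlapping groups. Without control replicate 1 the POLE4 difference was -0.06, and without deprived replicate 1 it was -0.0024, so that its direction is not set by these libraries. Per length, the TPM level of POLE3 was 3.06 and 2.71 times that of POLE2 in the controls and 49.7 and 30.6 times in the deprived libraries.

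Polymerase delta, the lagging-strand enzyme, likewise held 3 subunits that fell and 1 that rose, with a median of -0.74. POLD1, the catalytic subunit (chr19:50384204-50418016, plus strand), stood at 167 and 153 CPM in the controls and 21.0 and 20.5 CPM in the deprived libraries (log2 fold change -2.95 ± 0.08, edgeR adjusted p = 1.06e-05). Most control counts of POLD1 lay on 1 transcript model of 783 bases annotated as unfinished, POLD1-213. That model held 13047 and 14038 counts in the controls and 8 and 450 in the deprived libraries. The full-length model POLD1-201 held 1118 and 1878 counts in the controls and 1341 and 1372 in the deprived libraries. Without transcripts whose ends are unfinished, an analysis chosen after seeing the data, POLD1 stood at 54.2 and 25.5 CPM in the controls and 21.3 and 16.6 CPM in the deprived libraries (log2 fold change -1.07 ± 0.35, edgeR adjusted p = 0.0459). The direction was thus the same on both sums, but the size of the POLD1 fall rested on that 1 model. POLD3, which stabilises the complex, stood at 41.8 and 38.7 CPM in the controls and 19.7 and 16.6 CPM in the deprived libraries (log2 fold change -1.15 ± 0.11, edgeR adjusted p = 0.00031). POLD2, the accessory subunit, stood at 137 and 137 CPM in the controls and 118 and 101 CPM in the deprived libraries (log2 fold change -0.33 ± 0.09, edgeR adjusted p = 0.0265), and this call was lost without any one of control replicate 1, control replicate 2 and deprived replicate 2 (edgeR adjusted p = 0.0651, 0.0648 and 0.107). POLD4, the smallest subunit (chr11:67350777-67356972, minus strand), rose, at 53.0 and 63.4 CPM in the controls and 119 and 94.1 CPM in the deprived libraries (log2 fold change 0.87 ± 0.14, edgeR adjusted p = 0.00302). POLD4 shares 21.3% of its exon bases with a same-strand gene model that held at most 0.2995 raw CPM. The TPM level of POLD4 was 4.99 and 5.96 times that of POLD3 in the controls and 23.5 and 22.3 times in the deprived libraries.

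**Figure D3:**
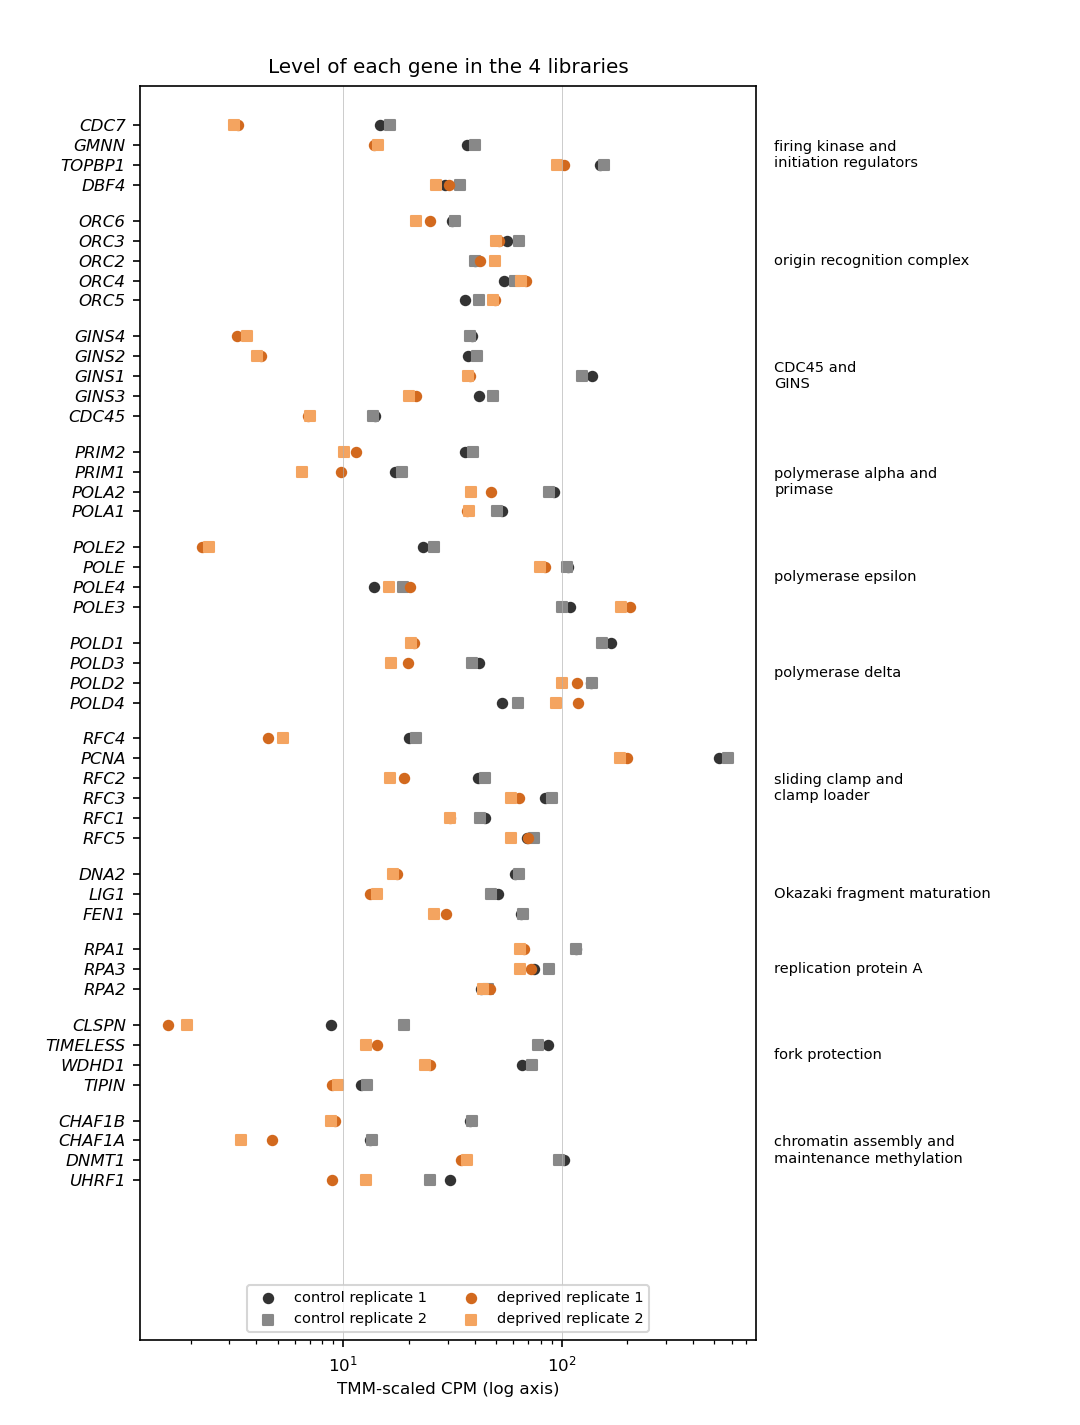
TMM-scaled CPM of each gene in the 4 libraries (horizontal log axis), with controls in grey tones and deprived libraries in orange, arranged by role. PCNA has the highest CPM of the 46 genes in the controls (528 and 578 CPM) and CLSPN the lowest in the deprived libraries (1.58 and 1.92 CPM).

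The sliding clamp and its loader fell in 5 of 6 genes, with a median of -0.90. PCNA, which tethers the polymerases to DNA and recruits many other fork proteins (chr20:5114953-5126626, minus strand), stood at 528 and 578 CPM in the controls and 199 and 184 CPM in the deprived libraries (log2 fold change -1.53 ± 0.09, edgeR adjusted p = 5.36e-05). It had the highest mean TPM of the 46 genes in both groups, 832 in controls and 229 in deprived cells. RFC4, a small subunit of the clamp loader RFC, stood at 20.1 and 21.5 CPM in the controls and 4.53 and 5.32 CPM in the deprived libraries (log2 fold change -2.08 ± 0.13, edgeR adjusted p = 7.33e-05). RFC2, another small subunit, stood at 41.3 and 44.6 CPM in the controls and 18.9 and 16.4 CPM in the deprived libraries (log2 fold change -1.28 ± 0.10, edgeR adjusted p = 0.000154). The large subunit RFC1 fell less, with levels of 44.7 and 42.2 CPM in the controls and 30.8 and 30.7 CPM in the deprived libraries (log2 fold change -0.50 ± 0.07, edgeR adjusted p = 0.00202). RFC3 is a further small subunit, shared with the alternative loaders, and stood at 83.6 and 90.7 CPM in the controls and 63.9 and 58.4 CPM in the deprived libraries (log2 fold change -0.51 ± 0.08, edgeR adjusted p = 0.00304). RFC5 was not called, at 69.0 and 74.6 CPM in the controls and 70.0 and 58.9 CPM in the deprived libraries (log2 fold change -0.16 ± 0.10, edgeR adjusted p = 0.254), and its groups overlapped. The TPM level of RFC5 was 2.59 and 2.38 times that of RFC4 in the controls and 10.2 and 7.25 times in the deprived libraries.

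All 3 genes of Okazaki fragment maturation, the joining of the short lagging-strand pieces, fell, with a median of -1.84. DNA2, a nuclease and helicase that trims long flaps, stood at 61.3 and 64.0 CPM in the controls and 17.6 and 16.9 CPM in the deprived libraries (log2 fold change -1.86 ± 0.07, edgeR adjusted p = 2.04e-05). LIG1, the ligase that seals the pieces, stood at 51.0 and 47.4 CPM in the controls and 13.2 and 14.3 CPM in the deprived libraries (log2 fold change -1.84 ± 0.09, edgeR adjusted p = 2.93e-05). In LIG1 the share of counts on protein-coding transcripts was 69.8% and 91.9% in the controls and 19.2% and 76.2% in the deprived libraries, and a retained-intron transcript class held 70.8% in deprived replicate 1. With protein-coding transcripts alone the LIG1 difference was -2.60 (edgeR adjusted p = 0.0304), a larger fall than with all transcripts. FEN1, the flap nuclease, stood at 65.1 and 66.6 CPM in the controls and 29.4 and 26.0 CPM in the deprived libraries (log2 fold change -1.25 ± 0.09, edgeR adjusted p = 9.67e-05). FEN1 shares 49 exon bases with FADS2 on the same strand, and FADS2 went from between 744.5 and 831.5 raw CPM in controls to between 69.0 and 76.7 raw CPM in deprived libraries. Whether reads of FADS2 had a part in the FEN1 difference was not tested.

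Replication protein A, the trimer that coats single-stranded DNA, fell in 1 of its 3 subunits (33.3%, against 24.4% of all tested genes). RPA1, the large subunit, stood at 117 and 116 CPM in the controls and 67.2 and 64.6 CPM in the deprived libraries (log2 fold change -0.82 ± 0.07, edgeR adjusted p = 0.00018). RPA2, the middle subunit, stood at 42.6 and 46.2 CPM in the controls and 47.0 and 43.5 CPM in the deprived libraries (log2 fold change 0.03 ± 0.08, edgeR adjusted p = 0.818), and its direction changed with the scaling, being -0.08 with upper-quartile scaling and -0.31 with library totals alone. RPA3, the small subunit, stood at 74.6 and 87.5 CPM in the controls and 72.0 and 64.3 CPM in the deprived libraries (log2 fold change -0.25 ± 0.10, edgeR adjusted p = 0.0949). The TPM level of RPA2 was 0.904 and 0.994 times that of RPA1 in the controls and 1.72 and 1.66 times in the deprived libraries.

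The fork protection group, which keeps helicase and polymerases together and signals stalled forks, fell in all 4 genes and had the lowest median of the 11 role groups, -2.06. TIMELESS stood at 86.9 and 77.9 CPM in the controls and 14.2 and 12.7 CPM in the deprived libraries (log2 fold change -2.61 ± 0.10, edgeR adjusted p = 1.76e-05). TIPIN, its binding partner, stood at 12.1 and 12.8 CPM in the controls and 8.84 and 9.45 CPM in the deprived libraries (log2 fold change -0.45 ± 0.12, edgeR adjusted p = 0.0227). Both fell, but the TPM level of TIPIN was 0.387 and 0.4355 times that of TIMELESS in the controls and 1.61 and 2.05 times in the deprived libraries. The TIPIN call was lost without control replicate 1, control replicate 2 or deprived replicate 1 (edgeR adjusted p = 0.0615, 0.107 and 0.0799). CLSPN encodes claspin, the adaptor through which stalled forks activate the kinase CHK1, and stood at 8.75 and 19.0 CPM in the controls and 1.58 and 1.92 CPM in the deprived libraries (log2 fold change -2.99 ± 0.39, edgeR adjusted p = 0.00124). The control replicates of CLSPN differed by more than 2-fold, and its difference was -2.34 without control replicate 2 and -3.45 without control replicate 1. WDHD1, which links polymerase alpha to the helicase, stood at 65.9 and 72.8 CPM in the controls and 24.9 and 23.5 CPM in the deprived libraries (log2 fold change -1.52 ± 0.08, edgeR adjusted p = 4.68e-05).

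The genes that rebuild chromatin and its methylation behind the fork fell in 4 of 4 cases, with a median of -1.60. CHAF1B, a subunit of the histone chaperone CAF-1, stood at 37.9 and 38.7 CPM in the controls and 9.16 and 8.81 CPM in the deprived libraries (log2 fold change -2.09 ± 0.08, edgeR adjusted p = 2.02e-05). CHAF1A, its large subunit, stood at 13.2 and 13.5 CPM in the controls and 4.73 and 3.41 CPM in the deprived libraries (log2 fold change -1.71 ± 0.19, edgeR adjusted p = 0.00061). DNMT1 copies methylation to the new strand (chr19:10133345-10231286, minus strand) and stood at 102 and 97.1 CPM in the controls and 34.5 and 36.8 CPM in the deprived libraries (log2 fold change -1.48 ± 0.07, edgeR adjusted p = 3.51e-05). UHRF1 recognises half-methylated DNA and recruits DNMT1. It stood at 30.8 and 25.0 CPM in the controls and 8.88 and 12.7 CPM in the deprived libraries (log2 fold change -1.37 ± 0.20, edgeR adjusted p = 0.00184). All 4 genes had deprived libraries below both controls, as did 40.5% of all tested genes.

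Counts of a gene also moved between its transcript models. In CDC7 the model CDC7-201 went from 1496 and 1491 counts in controls to 0 in both deprived libraries, while CDC7-203 went from 155 and 264 to 339 and 338. DNMT1-202 went from 6266 and 6469 counts to 54 and 23, whereas DNMT1-201 went from 5059 and 3369 to 2822 and 3086. POLE3-201 rose from 4895 and 4759 to 17955 and 18478 counts, while POLE3-202 went from 7416 and 5543 to 3009 and 114. Other models differed widely between the 2 control replicates, so not every shift between models follows the groups. GMNN-202 held 980 and 3703 counts in control replicates 1 and 2, CLSPN-202 held 0 and 1849, and POLA1-201 held 0 and 2453. All these divisions among transcripts are estimates with no error attached and were not tested. Over the 46 genes, the median share of counts on protein-coding transcripts was between 97.3% and 97.8% in the 4 libraries. That was close to the 97.3% to 97.7% of all protein-coding genes with at least 50 counts in each library. Single members departed from that median, with changes in both directions that were not tested. In DNMT1 the share was 96.95% and 92.07% in the controls and 79.9% and 78.13% in the deprived libraries. Retained-intron transcripts of DNMT1 held 2.51% and 3.48% in the controls and 18.2% and 20.4% in the deprived libraries. In ORC6 the protein-coding share was 47.0% and 55.6% in the controls and 66.9% and 70.2% in the deprived libraries.

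**Figure D4:**
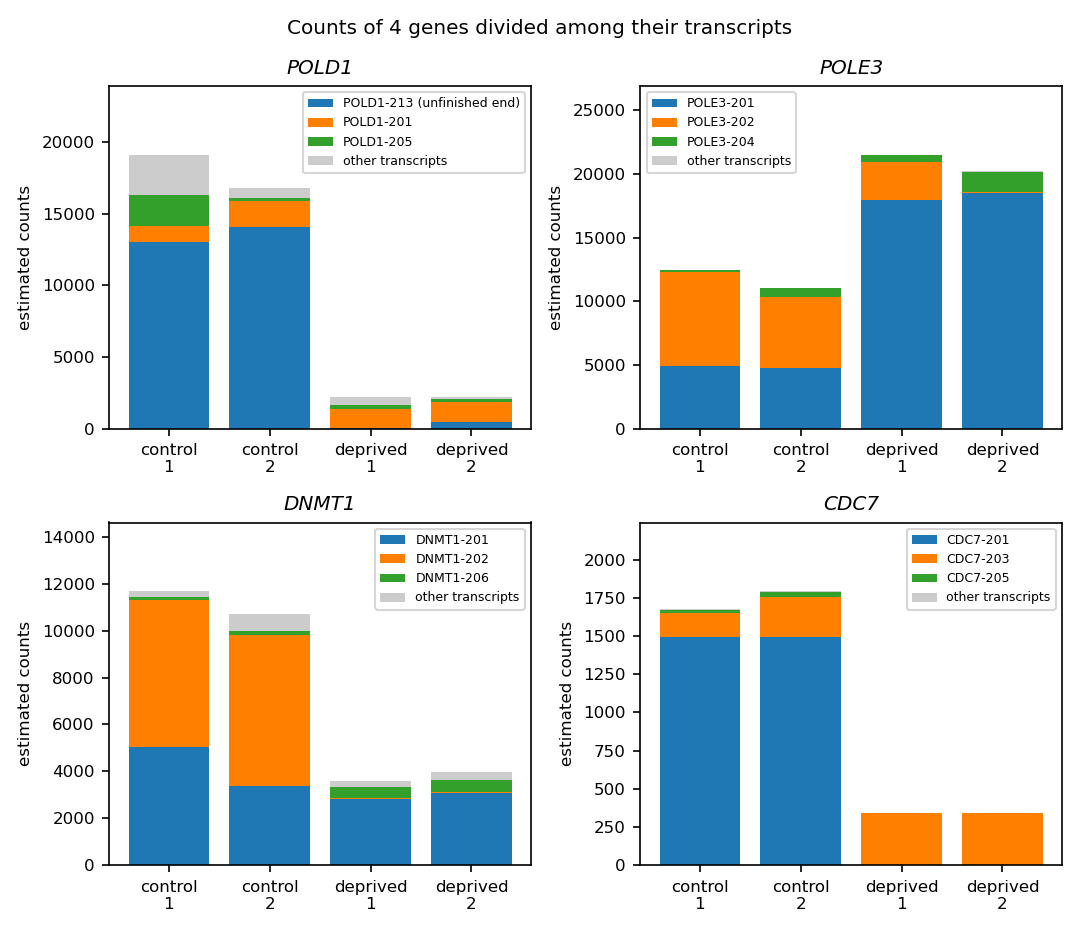
Estimated counts (vertical axis, linear, from 0) of POLD1, POLE3, DNMT1 and CDC7 in each of the 4 libraries, stacked by the 3 transcript models with most counts and all others. The POLD1 control bars consist mostly of POLD1-213, at 13047 and 14038 counts, and which holds 8 and 450 counts in the deprived bars.

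Genes outside the 46 give the setting. The 9 origin licensing genes of a separate list, which holds ORC1 but not ORC2 to ORC6, all fell, with a median of -2.53. Other fork and initiation factors fell in 9 of 12 cases with none higher (median -0.70), with RECQL4, which acts in helicase activation at origins, at -2.99 and MCM10 at -1.70. The alternative clamp loaders fell in 3 of 4 genes, with DSCC1 at -2.63 and ATAD5, which unloads PCNA, at -1.31. The remaining 1, CHTF8, named after its values were seen, rose by 1.00. Other histone chaperones fell in 4 of 8 genes and rose in 1, with ASF1B, which hands histones to CAF-1, at -2.37. Nucleases and primer removal genes fell in 3 of 6 and rose in 2, with the resection nuclease EXO1 at -2.07.

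The remaining lists of DNA synthesis genes held calls in both directions. For mitochondrial replication and for cohesion genes the shares called, 25% lower and 25% higher in each list, lay near those of all tested genes. Of 13 translesion and repair polymerases, 7 rose and 3 fell (median 0.26), with REV3L, the catalytic subunit of polymerase zeta, at 1.57 and POLQ, the end-joining polymerase, at -1.87. Mitochondrial replication genes rose in 2 of 8 and fell in 2, with a median of -0.02. Other ligases and topoisomerases rose in 3 of 7 and fell in 2, with TOP1, which relieves DNA supercoils, at 1.74. Cohesion genes rose in 2 of 8 and fell in 2, with the acetyltransferase ESCO2 at -2.17. All differences in this and the preceding paragraph are log2 fold changes from the same edgeR analysis, in which 24.4% of all tested genes were called lower and 25.2% higher, and the difference between lists was not tested.

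**Figure D5:**
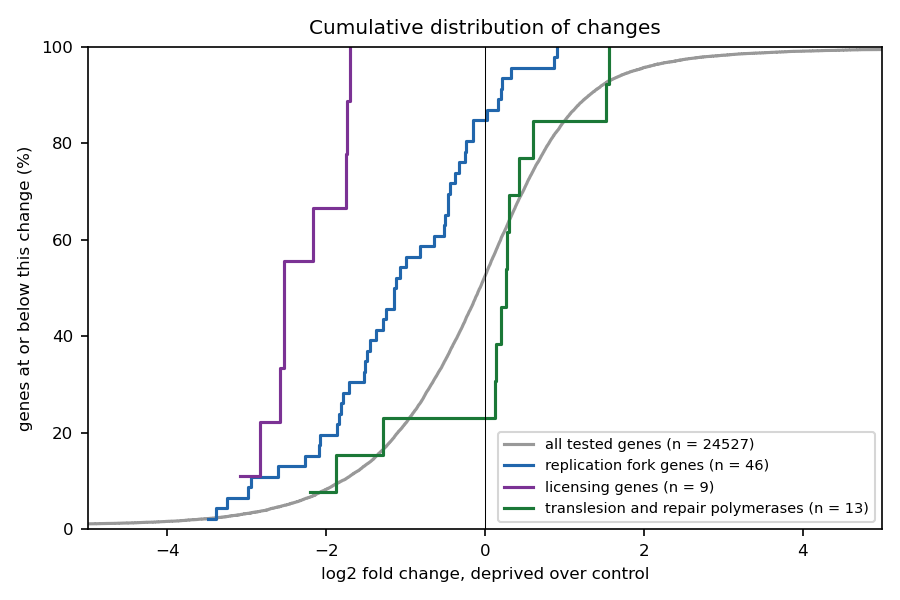
Cumulative share of genes (vertical axis, percent) at or below each log2 fold change (horizontal axis, deprived over control) for all 24527 tested genes, the 46 replication fork genes, 9 licensing genes and 13 translesion and repair polymerases. The medians of the 46 genes and of all tested genes are -1.13 and -0.06, and the curve of all tested genes reaches further at both ends.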

How the data were processed

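Polyadenylated RNA of 2 control and 2 glutamine-deprived A549 samples was sequenced, per the labels' protocols. The submitters' processing notes name HISAT2 2.0.5, featureCounts 1.5.0-p3, DESeq2 1.20.0 and the build hg38, with no role given. How reads were divided among transcripts, with which annotation and with what use of strand, was not given in the sources used here.

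As deposited by the authors, the files hold whole-number values for 229420 transcripts, which were treated as estimated counts because in 3258 of 7456 pairs (43.7%) a transcript covering every exon of another held fewer counts. They were summed to genes by Ensembl ID with GENCODE 29. The 24114 transcripts with no match, holding under 2% of counts, were left out, so some sums may be partial. Genes were filtered with filterByExpr, scaled with TMM (factors 1.147, 1.10, 0.862 and 0.919) and tested with edgeR 4.0.16 (quasi-likelihood, two-sided) in R 4.3.3, with Benjamini-Hochberg adjustment over all tested genes. Each SE was derived from the fitted fold change and its F statistic (size of the log2 change over root F). The procedure was tested on simulated data with fewer changed genes and less spread between replicates than these libraries. That test therefore does not show how reliable the calls are here. The common biological coefficient of variation was 0.2105. Counts of replicates differed beyond sampling noise (chi-square per degree of freedom 34.7 and 48.8), so none was counted as a copy. Exact permutation of 2 against 2 libraries cannot give a p under 0.333.

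The members and gene lists were chosen with earlier results of these data known. All 46 members may be named, and of each other list up to 2 genes with the smallest p. A deposited table of long non-coding RNA transcripts holds no member and was not used. Motifs were searched with Python 3.11.15. Alternatives were RLE, upper-quartile and library-size scaling, no filter, at least 50 counts in 2 libraries, DESeq2 1.42.0, limma-voom 3.58.1, each library left out, a replicate block, protein-coding transcripts only and, chosen after seeing the data, complete transcripts only.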

Additional observations from a re-analysis of the deposited data

How the results depend on the processing

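Over the alternatives other than leaving out a library, 34 to 40 of the 46 genes were called lower and 2 to 4 higher. Leaving out 1 library at a time gave 33 to 35 lower and 2 to 3 higher, with medians from -1.196 to -1.003 and 9649 to 11687 genes called over all. The median of the 46 was -1.47 with library totals as the only scaling. Under that scaling ORC2 was -0.13, ORC4 -0.12, ORC5 -0.00066, POLE4 -0.18 and RPA2 -0.31 (edgeR adjusted p = 0.0117), each turned from the TMM direction, and the construction of that scaling shifts all genes downward. RPA2 was also turned at -0.082 with upper-quartile scaling, -0.024 with at least 50 counts in 2 libraries and -0.033 with protein-coding transcripts only, and the cause was not tested. Leaving out 1 library gave RPA2 between -0.042 and 0.096 and POLE4 between -0.056 and 0.38.

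Nothing in the labels says whether replicate numbers pair the libraries. The deviations of same-numbered libraries correlated at -0.064, but with 2 libraries per group this cannot show whether they were paired. With a replicate block, 34 of the 46 genes were called lower and 3 higher, with a median of -1.14, and 10608 genes were called over all, against 12156 without it. TIPIN was the member that lost its call (edgeR adjusted p = 0.0507). Of the 14 alternatives, ORC5 was called in 8, POLD2 and TIPIN in 10 each and ORC6 in 13. The calls of ORC5, POLD2 and TIPIN were lost when single libraries were left out, and each was lost in other alternatives as well. That of ORC6 was lost with protein-coding transcripts only, and the cause was not tested.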

Other observations

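Among the context genes, the cohesin subunit SMC1A differed between replicates of deprived cells, at 90.2 CPM in replicate 1 and 2.51 CPM in replicate 2. The level of KRT8, an epithelial keratin, was 5154 and 5235 CPM in the controls and 886 and 714 CPM in the deprived libraries. Both are given as values with no explanation.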
